A study of Mus musculus with 9 samples.

Results

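The genes described here encode the machinery of oxidative phosphorylation and were chosen by symbol alone. They are the protein-coding genes whose symbols begin with Ndufa, Ndufb, Ndufc, Ndufs, Ndufv, Uqcr, Atp5, mt-Nd, mt-Cyt, mt-Co or mt-Atp, the Cox genes numbered 4 to 8, and Sdha, Sdhb, Sdhc and Sdhd. The FPKM table held 106 of them among 27203 genes, and 1 further gene that fits the rule was not analysed here. By role, 84 were nuclear-encoded subunits (36 of complex I, 4 of complex II, 8 of complex III, 20 of complex IV and 16 of complex V) and 13 were subunits encoded by the mitochondrial genome. The symbol rule also took 9 genes that are not subunits, namely the complex I assembly factors Ndufaf1 to Ndufaf8 and Atp5s, a coupling factor gene named for complex V.

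Oxidative phosphorylation takes place in the inner mitochondrial membrane, where complexes I to IV pass electrons to oxygen, complexes I, III and IV pump protons, and complex V, the ATP synthase, uses the proton gradient to make ATP. Complexes I, III, IV and V are built from nuclear and mitochondrial gene products together, whereas complex II is wholly nuclear-encoded. The mitochondrial genes are transcribed as long precursors from both strands of a circular genome and then cut apart, so their mRNA levels can be set after transcription as well as by it. In the lung, alveolar type 2 cells and ciliated airway cells are rich in mitochondria, while mature neutrophils hold few.

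Lung RNA of male C57BL/6 mice aged 6 to 8 weeks was sequenced in 9 libraries, with 3 mice per group. Mice of the VILI (ventilator-induced lung injury) groups were ventilated for 4 hours with a tidal volume of 20 ml/kg, and lungs were taken either directly (VILI 0 hours) or 6 hours after ventilation (VILI 6 hours). Control mice were intubated and not ventilated, so the comparisons with control combine the high tidal volume with ventilation itself. No group carried a genetic change. The P values measure only the spread between these samples. In whole lung, fewer cells of a type and less RNA per cell cannot be told apart.

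The deposited values are FPKM (fragments mapped to a transcript, scaled by its length and by the fragments mapped in the library), and library sums ran from 366360 to 388459 FPKM. The summed FPKM of 8 alveolar type 2 markers was high in every library, from 13018 to 16139. A list of 14 neutrophil markers summed to 122 to 135 FPKM in the controls, 732 to 1157 at VILI 0 hours and 652 to 3111 at VILI 6 hours. VILI 6 hours replicate 1 stood apart: 7 erythroid markers summed to 489 FPKM there and to 3226 to 5421 in the other 8 libraries, while 8 club and ciliated cell markers summed to 41709 FPKM there and to 23641 to 32931 elsewhere. The counts of called members and the medians that moved most without this library are also given without it.

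The mitochondrially encoded subunits were by far the most abundant members. The 10 members with the highest mean FPKM were all mitochondrial, led by mt-Co1, the catalytic subunit of complex IV (mean 5039 FPKM over 9 libraries), and mt-Atp6, the proton channel subunit of complex V (3579 FPKM). The lowest of the 13 was mt-Nd6 (508 FPKM), a complex I subunit and the sole protein-coding gene of the light strand. Among nuclear-encoded subunits, Atp5b, the catalytic beta subunit of complex V, had the highest mean (171 FPKM), followed by Cox6c (157 FPKM) and Cox4i1 (142 FPKM) of complex IV. The median level of nuclear-encoded subunits was 28.5 FPKM for complex I, 34.4 for complex II, 48.3 for complex III, 42.1 for complex IV and 66.5 for complex V. The assembly and accessory factors were lower, with means from 2.14 to 8.48 FPKM. Of the 106 genes, 104 had a mean of at least 0.1 FPKM and were tested. Cox7b2 and Cox8c, complex IV isoforms known from testis, did not pass that filter, and each was above 0 in a single library.

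**Figure D1:**
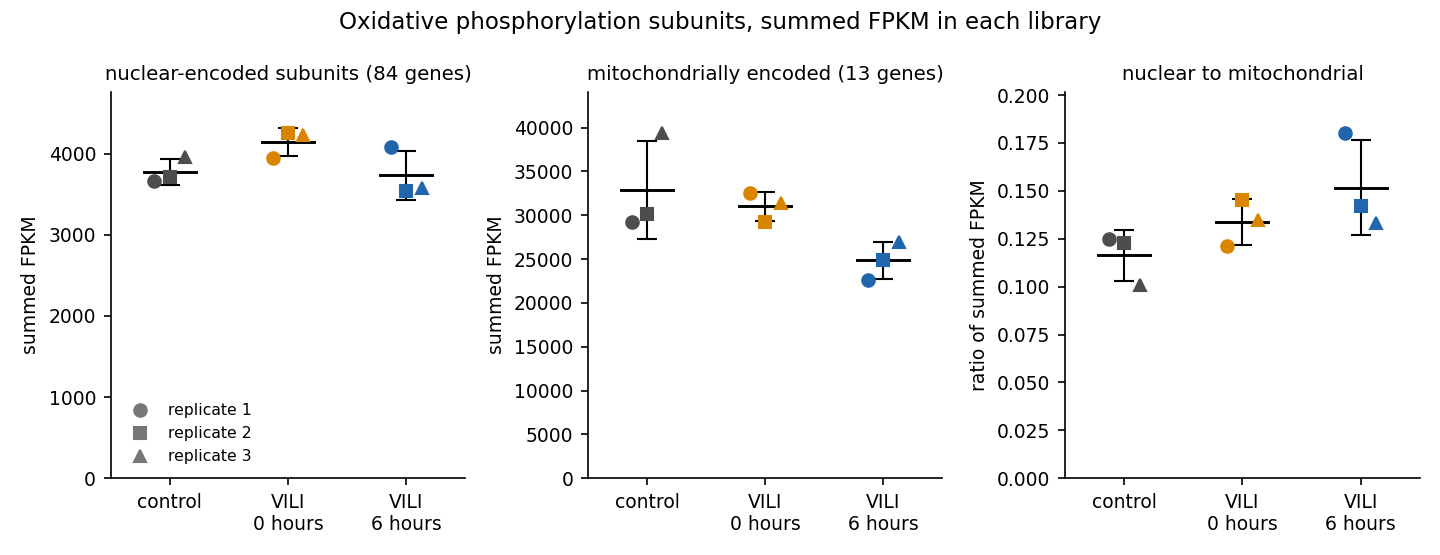
Summed FPKM of the 84 nuclear-encoded subunits (left), of the 13 mitochondrially encoded subunits (middle) and their ratio (right) in each library, with group means and SD (n = 3). The 3 VILI 6 hours libraries lie between 22636 and 26943 FPKM in the middle panel, below all control and VILI 0 hours libraries.

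The summed FPKM of the mitochondrially encoded subunits was lower at VILI 6 hours than in either other group. It was 29165, 30109 and 39330 FPKM in the control replicates, 32473, 29248 and 31371 at VILI 0 hours and 22636, 24910 and 26943 at VILI 6 hours. As a share of all FPKM, this was 8.78% ± 1.27 in the controls, 8% ± 0.424 at VILI 0 hours and 6.61% ± 0.617 at VILI 6 hours (SD, n = 3). Control replicate 3 was the highest library, and the control and VILI 0 hours groups overlapped. The nuclear-encoded subunits summed to 3657, 3706 and 3955 FPKM in the controls, 3943, 4248 and 4231 at VILI 0 hours and 4075, 3534 and 3578 at VILI 6 hours. Only 1 VILI 0 hours library fell within the control range, and VILI 6 hours replicate 1 was above the other 2 libraries of its group. The ratio of nuclear to mitochondrial FPKM, which does not depend on how a library is scaled, was 0.116 ± 0.0137 in the controls, 0.134 ± 0.0119 at VILI 0 hours and 0.152 ± 0.0251 at VILI 6 hours. All 3 VILI 6 hours libraries (0.180, 0.142 and 0.133) were above the 3 controls (0.125, 0.123 and 0.101), as the plot of sums by library shows. Some cell markers moved beside the mitochondrial sum. Of the 14 neutrophil markers, 13 were called higher for VILI 6 hours vs control, 8 of them after adjustment (median log2 fold change 3.86). B and T cell markers summed to 74.2, 55.9 and 61.1 FPKM in the controls and 18.6, 49.6 and 36.8 at VILI 6 hours, wholly below, with 3 of 9 tested genes called lower. Brown fat markers, low throughout, summed to 8.18 to 9.05 FPKM at VILI 6 hours and to 9.23 to 13.9 in the other 6 libraries, with 1 of 5 tested genes called lower against control, and Ucp1, their defining gene, was at most 0.127 FPKM and at 0 in 3 libraries. Of 8 endothelial markers 3 were called lower against control, while their sums overlapped (1061 to 1125 and 982 to 1110 FPKM). The part of these cells in the mitochondrial values was not tested.

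**Figure D2:**
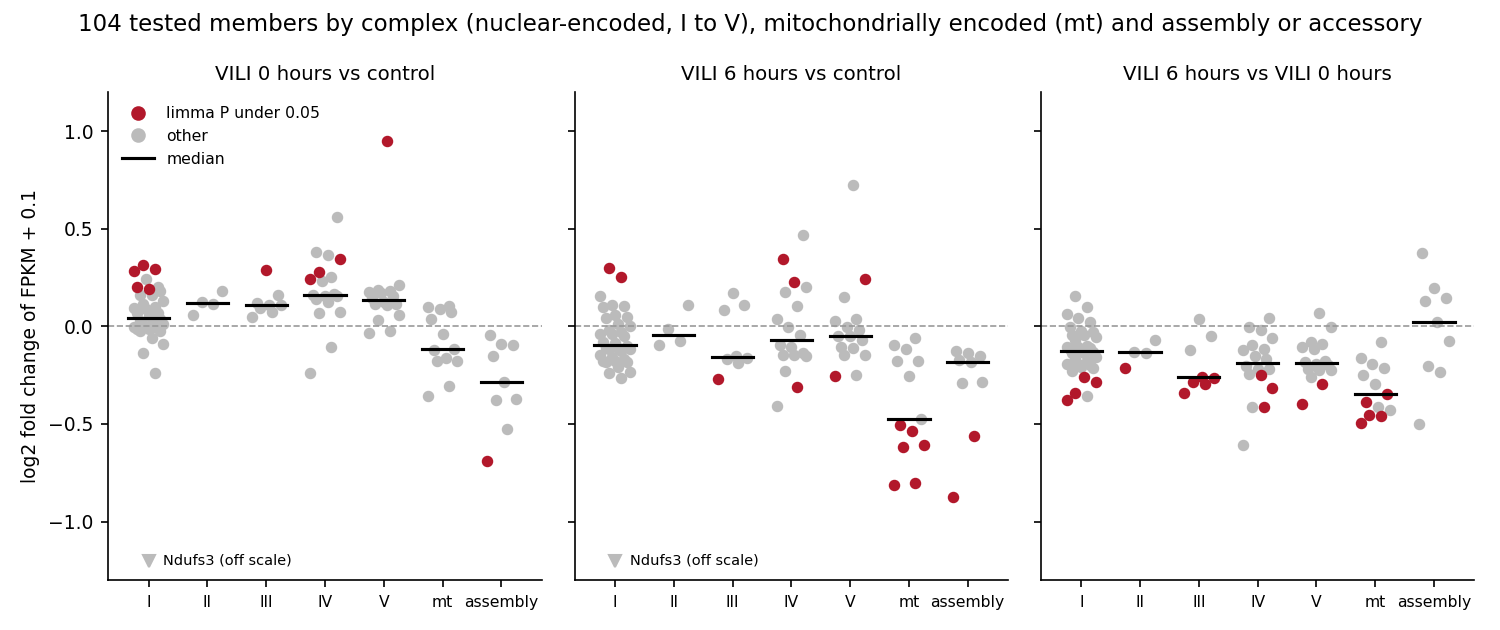
Log2 fold change of each tested member (dots) in the 3 comparisons, by complex for nuclear-encoded subunits (I to V), for mitochondrially encoded subunits (mt) and for assembly or accessory factors. Red marks limma P under 0.05 and bars mark medians. Ndufs3, listed at 0 in 2 libraries, is drawn off scale.

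Differences between groups were tested with limma on log2(FPKM + 0.1) over all 19378 genes that passed the filter, and a gene is called here when its P before adjustment was under 0.05, the threshold the study used. An exact permutation test of 3 against 3 libraries cannot go below p = 0.1, which it reaches when the groups do not overlap. In VILI 0 hours vs control, 11 of 104 members were called, 10 higher and 1 lower. Of all genes tested, 16.2% were called, 6.81% higher and 9.35% lower, so the share of members called (10.6%) was below the background. Against control, VILI 6 hours gave 16 called members, 5 higher and 11 lower, against 20.4% of all genes (8.17% higher and 12.2% lower). From VILI 0 hours to VILI 6 hours, 20 members were called and all 20 were lower, a share of 19.2% against 10% of all genes, 5.06% higher and 4.94% lower. After Benjamini-Hochberg adjustment over all genes, limma called 0 members in each comparison, against 0.284% of all genes for VILI 0 hours vs control, 0.702% for VILI 6 hours vs control and 0.0% for VILI 6 hours vs VILI 0 hours. The smallest adjusted p of a member was 0.0723, that of mt-Nd3 for VILI 6 hours vs control.

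The nuclear and mitochondrial members had different medians in each comparison. The median log2 fold change of the 82 tested nuclear-encoded subunits was 0.12 for VILI 0 hours vs control, with 65 above 0, and -0.08 for VILI 6 hours vs control, with 26 above 0. It was -0.15 for VILI 6 hours vs VILI 0 hours, with 8 above 0. The median of the 13 mitochondrial genes was -0.12, -0.47 and -0.35 in the same comparisons, with 5, 0 and 0 genes above 0. The median over all genes tested was -0.07, -0.09 and -0.02. The direction of the small medians depends on the scaling. When each library was centred on its median gene, values for VILI 0 hours vs control moved up by 0.115 on the log2 scale and those for VILI 6 hours vs control by 0.127. With that centring the nuclear median for VILI 6 hours vs control turned from -0.08 to 0.05 and the member calls became 34 higher and 1 lower at VILI 0 hours (10% and 6.36% of all genes) and 11 higher and 3 lower at VILI 6 hours (11.7% and 8.46%). From VILI 0 hours on to VILI 6 hours they became 0 higher and 12 lower (4.92% and 5.08%). When libraries were instead scaled to equal sums outside the mitochondrial genome, the calls shifted the other way, to 4 higher and 4 lower members at VILI 0 hours (5.01% and 13.6% of all genes) and 4 higher and 15 lower at VILI 6 hours against control (6.89% and 16.2%). Between both VILI groups that scaling gave 0 higher and 17 lower (5.78% and 4.22%). The nuclear median for VILI 6 hours vs control also moved with single libraries: it was -0.14 without VILI 6 hours replicate 1, -0.03 without replicate 2, -0.04 without replicate 3 and -0.04 without control replicate 3. Without VILI 6 hours replicate 1 the nuclear median for VILI 6 hours vs VILI 0 hours was -0.23, and the mitochondrial median for VILI 6 hours vs control was -0.30. The latter was -0.26 without control replicate 3.

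The lower mitochondrial mRNAs of VILI 6 hours included subunits of complexes I, IV and V. Against control, 6 of the 13 genes were called, all lower, where 12.2% of all genes were called lower, and 8 of 13 had every VILI 6 hours library below every control library. Over all genes, 24.6% did not overlap and 15% had VILI 6 hours wholly below control. With median-centred libraries 2 of the 13 were called, both lower, against 8.46% of all genes called lower. Without control replicate 3, 5 of the 13 were called lower (7.64% of all genes), mt-Atp6 no longer among them, and the log2 fold changes of mt-Nd3 and mt-Nd4l were -0.62 and -0.63. The pair with the largest differences were mt-Nd3 and mt-Nd4l, small membrane subunits of complex I. For mt-Nd3 (chrM:9459-9806, GRCm38, + strand) the control libraries had 1315, 1142 and 1772 FPKM, VILI 0 hours had 1142, 1070 and 1150, and VILI 6 hours had 804, 679 and 919. The VILI 6 hours libraries were below all others, and the log2 fold change against control was -0.80 ± 0.18 (SE, adjusted p = 0.0723). For mt-Nd4l (chrM:9877-10173, + strand) the values were 2183, 1870 and 2929 FPKM in the controls, 1943, 1618 and 1817 at VILI 0 hours and 1231, 1204 and 1489 at VILI 6 hours. VILI 6 hours was again below every other library, and the log2 fold change against control was -0.81 ± 0.18 (adjusted p = 0.0733).

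The other called genes of this comparison were mt-Nd4, mt-Co3, mt-Co2 and mt-Atp6. The core complex I subunit mt-Nd4 had 2219, 2043 and 2689 FPKM in the controls, 2093, 2047 and 2233 at VILI 0 hours and 1591, 1543 and 1746 at VILI 6 hours (log2 fold change vs control -0.50 ± 0.14, adjusted p = 0.115). The complex IV core subunit mt-Co2 had 2556, 2835 and 3927 FPKM in the controls, 3049, 2513 and 2567 at VILI 0 hours and 1847, 1876 and 2331 at VILI 6 hours (-0.61 ± 0.19, adjusted p = 0.142). Its partner mt-Co3 had 2028, 2280 and 3299 FPKM in the controls, 2437, 2115 and 2106 at VILI 0 hours and 1547, 1481 and 1843 at VILI 6 hours (-0.62 ± 0.19, adjusted p = 0.14). In all 3 genes the VILI 6 hours libraries lay below every other library, and control replicate 3 was the highest. For mt-Atp6 the control values were 3362, 3665 and 5461 FPKM, those of VILI 0 hours 4250, 3481 and 3525, and those of VILI 6 hours 2442, 2810 and 3216 (-0.54 ± 0.21, adjusted p = 0.204). Its neighbour mt-Atp8, a small subunit of complex V, had 2661, 2961 and 4373 FPKM in the controls, 3196, 2654 and 2805 at VILI 0 hours and 1839, 3081 and 2272 at VILI 6 hours, and the groups overlapped (-0.47 ± 0.24, adjusted p = 0.287). Without VILI 6 hours replicate 1 its log2 fold change was -0.30.

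The remaining mitochondrial genes differed less from control. The catalytic subunit mt-Co1 had 4633, 5046 and 5788 FPKM in the controls, 5563, 5276 and 5386 at VILI 0 hours and 4260, 4507 and 4890 at VILI 6 hours (-0.18 ± 0.16, adjusted p = 0.531). For mt-Cytb, the mitochondrial subunit of complex III, the values were 2784, 2755 and 3234 FPKM, then 2998, 3014 and 3314, then 2427, 2369 and 2532. Its VILI 6 hours libraries were below all others, and it was called against VILI 0 hours (-0.35 ± 0.13, adjusted p = 0.438) and not against control (-0.26 ± 0.13, adjusted p = 0.298). The complex I subunits mt-Nd1, mt-Nd2 and mt-Nd5 had log2 fold changes vs control of -0.06, -0.18 and -0.09. In mt-Nd1 the range was 2203 to 2459 FPKM in the controls and 1817 to 2565 at VILI 6 hours, in mt-Nd2 it was 1375 to 1453 and 1208 to 1315, and in mt-Nd5 it was 1295 to 1418 and 1181 to 1340. For mt-Nd6 the range was 494 to 555 FPKM in the controls, 454 to 591 at VILI 0 hours and 444 to 525 at VILI 6 hours.

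**Figure D3:**
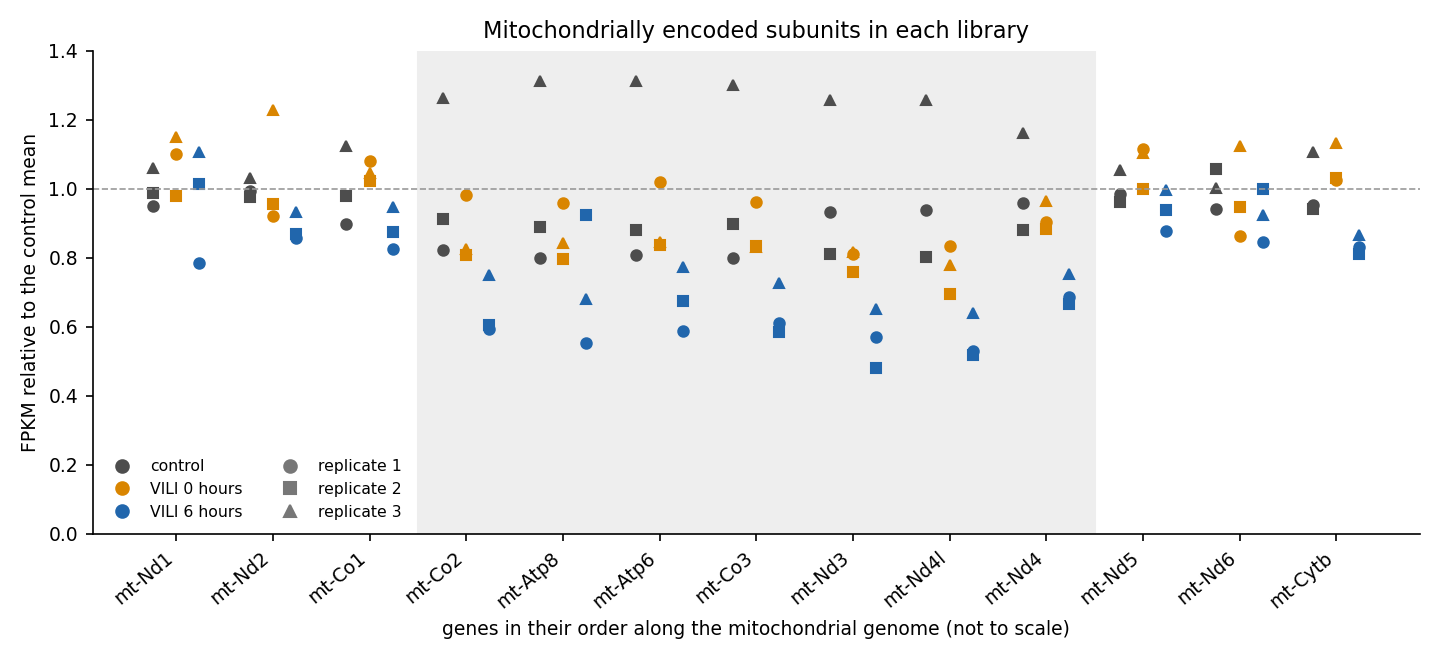
FPKM of the 13 mitochondrially encoded subunits in each library, divided by the control mean of the gene, in their order along the mitochondrial genome. The shaded genes, mt-Co2 to mt-Nd4, are the 7 whose log2 fold change for VILI 6 hours vs control was -0.47 or lower.

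The 7 genes of larger change lie side by side on the genome. From mt-Co2 to mt-Nd4, log2 fold changes for VILI 6 hours vs control ran from -0.81 to -0.47 (median -0.61), while those of the other 6 genes ran from -0.26 to -0.06 (median -0.15). This grouping was made after the values were seen and has no test. The ratio of the summed FPKM of the 7 genes to that of the other 6 was 1.27, 1.26 and 1.64 in the control replicates, 1.26, 1.13 and 1.07 at VILI 0 hours and 0.997, 1.04 and 1.05 at VILI 6 hours. VILI 6 hours was below every other library, whereas VILI 0 hours replicate 1 and control replicate 2 nearly met. The log2 difference of this ratio for VILI 6 hours vs control was -0.43, and -0.30 without control replicate 3, the library with the highest ratio. Gene length moved with the difference as well: over the 13 genes Pearson's r between log2 transcript length and log2 fold change was 0.602 for VILI 6 hours vs control and 0.768 for VILI 0 hours vs control, where the points share the same libraries. Over the 82 nuclear-encoded subunits, which include Ndufs3 with its values of 0, the same r was 0.12 and 0.014. Spearman's rho, which uses ranks, was 0.168 and -0.143 over these 82 and 0.527 and 0.786 over the 13 mitochondrial genes. For VILI 6 hours vs VILI 0 hours, which leaves the controls out, r was 0.319 over the mitochondrial and 0.257 over the nuclear-encoded genes. The median log2 fold change for VILI 6 hours vs control was -0.61 for the 7 mitochondrial genes under 900 bases and -0.18 for the 6 of at least 900 bases. This split nearly repeats the one by position and has no test either. Only mt-Nd4 (1378 bases, -0.50), inside the stretch, and mt-Nd6 (519 bases, -0.12), outside it, fall on different sides in the 2 splits. The parts of position, length and control replicate 3 in the pattern were not tested.

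Some of these genes share sequence, which bears on how fragments are assigned to them. The end of mt-Atp8 and the start of mt-Atp6 share 43 bases (chrM:7927-7969, GRCm38, + strand), and the end of mt-Nd4l and the start of mt-Nd4 share 7 (chrM:10167-10173). They are printed here with 15 bases on either side, with the shared bases in capitals.
mt-Atp8/mt-Atp6: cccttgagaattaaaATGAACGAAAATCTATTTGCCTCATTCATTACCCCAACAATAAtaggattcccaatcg
mt-Nd4l/mt-Nd4: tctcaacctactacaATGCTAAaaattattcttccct
The capitals begin with the ATG start codon of the downstream gene in both pairs. The ratio of mt-Atp8 to mt-Atp6 was 0.792 to 0.808 in the controls, 0.752 to 0.796 at VILI 0 hours and 0.753, 1.1 and 0.706 at VILI 6 hours, so VILI 6 hours replicate 2 stood above the others. The genes mt-Nd5 and mt-Nd6 overlap by 14 bases on opposite strands, and without a settled strand setting their reads cannot be told apart there. The ratio of mt-Nd6 to mt-Nd5 ranged from 0.302 to 0.429 over the 9 libraries, with overlapping groups.

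In VILI 0 hours the mitochondrial genes did not separate from control. None of the 13 was called, where 16.2% of all genes were, and in all 13 the groups overlapped, where 33.5% of all genes did not. With equal sums outside the mitochondrial genome 1 of the 13 was called lower, against 13.6% of all genes. Without control replicate 2 the count was 2 lower, a fit for which no share of all genes is given. The largest differences were again those of mt-Nd4l (-0.36 ± 0.18, adjusted p = 0.373) and mt-Nd3 (-0.31 ± 0.18, adjusted p = 0.429). Without control replicate 3 the median of the 13 genes turned from -0.12 to 0.04. Setting VILI 6 hours against VILI 0 hours leaves the controls out. There, 5 of 13 were called lower, namely mt-Nd3, mt-Nd4, mt-Cytb, mt-Nd4l and mt-Co3 (log2 fold change -0.50 to -0.35), where 4.94% of all genes were called lower, and 9 of 13 had VILI 6 hours wholly below VILI 0 hours, against 6.28% of all genes. These 5 calls depended on the processing. With median-centred libraries 0 of 13 were called (5.08% of all genes lower) and without the filter on low values 1, and the count was 0 without VILI 6 hours replicate 2 (4.72% of all genes lower), 1 without VILI 0 hours replicate 3, 2 without VILI 0 hours replicate 1 and 3 without VILI 6 hours replicate 1 (13.9% of all genes lower) or with a pseudocount of 1. Where no percentage stands beside a count, the share of all genes in that fit is not given, so the count has no background. The median of the 13 genes stayed between -0.37 and -0.31 in all of the alternatives.

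Among nuclear-encoded subunits, the members called for VILI 0 hours vs control were all higher, by 14.0% to 27.2% apart from Atp5g1. Of 82 subunits, 23 had VILI 0 hours wholly above control and 2 wholly below, where 12% and 21.6% of all genes did so. By complex, the called subunits were 5 of 36 in complex I, 0 of 4 in complex II, 1 of 8 in complex III, 3 of 18 in complex IV and 1 of 16 in complex V, where 6.81% of all genes were called higher. The smallest P was that of Cox6a1, the widely expressed isoform of a complex IV subunit that tunes its activity. Its values were 89.7, 82.6 and 83.9 FPKM in the controls, 109, 111 and 105 at VILI 0 hours and 112, 114 and 100 at VILI 6 hours. Both VILI groups were wholly above control, by 0.35 ± 0.09 on the log2 scale at VILI 0 hours (adjusted p = 0.103) and by 0.34 ± 0.09 at VILI 6 hours (adjusted p = 0.0945). The Rieske iron-sulphur subunit of complex III, Uqcrfs1, had 29.3, 28.5 and 30.4 FPKM in the controls, 36.8, 34.6 and 36.7 at VILI 0 hours and 30.6, 33.6 and 35.1 at VILI 6 hours. It was higher than control at VILI 0 hours (0.29 ± 0.09, adjusted p = 0.157), and both VILI groups lay above every control.

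The complex I subunits called for VILI 0 hours vs control included Ndufa6, Ndufa7, Ndufb9 and Ndufc2. Ndufa7, an accessory subunit, had 52.8, 57.5 and 56.8 FPKM in the controls, 72.8, 67.1 and 68.3 at VILI 0 hours and 68.1, 51.8 and 55.1 at VILI 6 hours (log2 fold change vs control 0.32 ± 0.11, adjusted p = 0.209, at VILI 0 hours). Ndufc2, an accessory subunit of the membrane arm, had 46.0, 51.8 and 53.6 FPKM, then 58.6, 63.0 and 63.5, then 54.5, 46.2 and 45.8 (0.29 ± 0.10, adjusted p = 0.209). In both genes VILI 0 hours was wholly above control, and replicate 1 was the highest of the VILI 6 hours libraries. Ndufb9 was called in both VILI groups, with 49.7 to 53.2 FPKM in the controls, 55.4 to 62.3 at VILI 0 hours and 60.0 to 62.1 at VILI 6 hours (0.19 and 0.25, adjusted p = 0.292 and adjusted p = 0.146). In Ndufa6 the groups overlapped, since 1 control library had 57.9 FPKM and 1 VILI 0 hours library 57.4 (adjusted p = 0.281).

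In complexes IV and V, Cox4i1 and Cox7a2l were also called for VILI 0 hours vs control, as was Atp5g1. Cox4i1, the common isoform of the largest nuclear-encoded subunit of complex IV, had 136, 117 and 130 FPKM in the controls, 152, 152 and 147 at VILI 0 hours and 159, 150 and 138 at VILI 6 hours. It was higher in both VILI groups (0.24 and 0.23, adjusted p = 0.244 and adjusted p = 0.217). Cox7a2l had 71.3, 72.8 and 79.3 FPKM in the controls, 102, 90.1 and 79.9 at VILI 0 hours and 60.8, 68.1 and 74.6 at VILI 6 hours. Its VILI 0 hours libraries were above all others, the lowest by less than 1 FPKM over control replicate 3. Atp5g1 encodes the c subunit of the ATP synthase ring together with Atp5g2 and Atp5g3. Its call rests on a single control library, with 5.6, 21.1 and 14.2 FPKM in control against 20.8, 21.9 and 26.9 at VILI 0 hours, and the groups overlapped (0.95 ± 0.40, adjusted p = 0.287). All 3 genes together summed to 139 ± 15.2 FPKM in the controls, 162 ± 2.36 at VILI 0 hours and 144 ± 21.7 at VILI 6 hours.

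Other genes and markers moved beside the nuclear-encoded subunits at VILI 0 hours. Of the 14 neutrophil markers, 11 were called higher against control, 6 of them after adjustment (median log2 fold change 3.11). Of 82 cytosolic ribosomal protein genes, 29 were called higher for VILI 0 hours vs control (median log2 fold change 0.23) and 35 lower for VILI 6 hours vs VILI 0 hours (median -0.23). Of 38 proteasome subunits 1 was called higher and 0 lower, and of 75 mitochondrial ribosomal proteins 0 were called higher and 1 lower for VILI 0 hours vs control. Alveolar macrophage markers summed to 295 to 375 FPKM in the controls and 448 to 512 at VILI 0 hours, erythroid markers to 3226 to 4186 and 4920 to 5421, and club and ciliated markers to 25322 to 27777 and 30083 to 32931. The part of these cells in the subunit values was not tested.

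**Figure D4:**
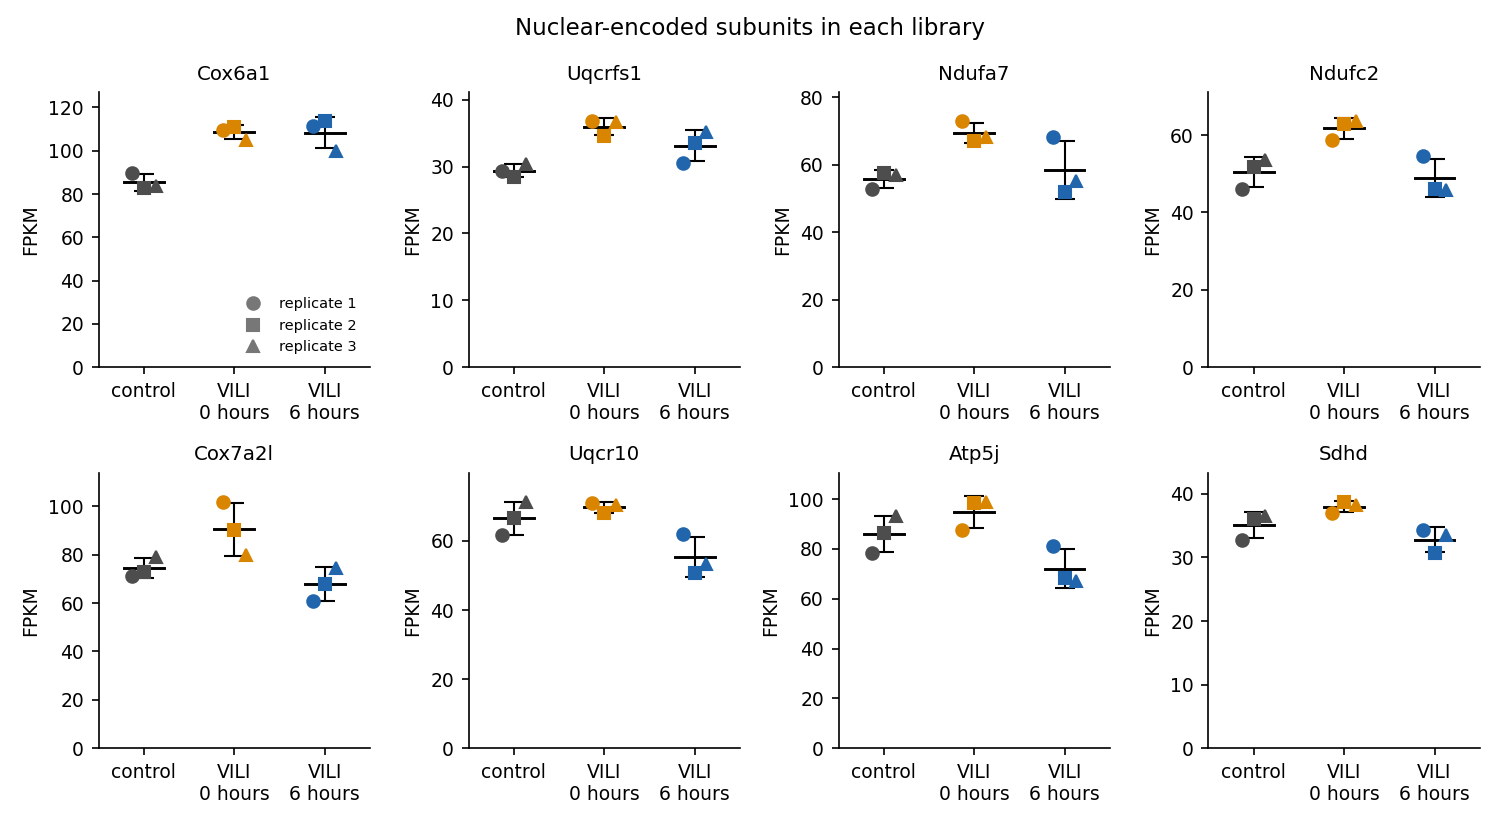
FPKM of 8 called nuclear-encoded subunits in each library, with group means and SD (n = 3). Cox6a1 lies above control in both VILI groups, while Cox7a2l, Uqcr10, Atp5j and Sdhd have all VILI 6 hours libraries below all VILI 0 hours libraries.

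Between VILI 0 hours and VILI 6 hours, 15 nuclear-encoded subunits of 82 were called and all 15 were lower, against 4.94% of all genes called lower, and 17 had VILI 6 hours wholly below VILI 0 hours while none lay wholly above (6.28% and 6.25% of all genes). The complex III subunits made up 5 of them out of 8 tested: Uqcr10, Uqcrc2, Uqcr11, Uqcrh and Uqcrb (log2 fold change -0.34 to -0.26). Complex I gave 4 of 36 (Ndufc2, Ndufa2, Ndufa7 and Ndufb3), complex II 1 of 4 (Sdhd), complex IV 3 of 18 (Cox7a2l, Cox8a and Ndufa4l2) and complex V 2 of 16 (Atp5j and Atp5g2). The small complex III subunit Uqcr10 had 61.8, 66.5 and 71.1 FPKM in the controls, 71.1, 68.0 and 70.4 at VILI 0 hours and 61.9, 50.8 and 53.3 at VILI 6 hours. VILI 6 hours was wholly below VILI 0 hours (-0.34 ± 0.10, adjusted p = 0.325) and was also called against control (-0.27 ± 0.10, adjusted p = 0.183), where replicate 1 met the lowest control. Atp5j, coupling factor 6 of the ATP synthase stalk, had 78.4, 86.4 and 93.2 FPKM, then 87.5, 98.4 and 98.7, then 81.1, 68.3 and 67.0. It had the smallest P of the members for VILI 6 hours vs VILI 0 hours (-0.40 ± 0.11, adjusted p = 0.31). Cox7a2l followed (-0.41 ± 0.12, adjusted p = 0.316).

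Some cell markers were lower in the same comparison. Of 8 alveolar macrophage markers 5 were called lower (median log2 fold change -0.52), of 7 erythroid markers 4 (median -1.39) and of 9 tested B and T cell markers 1 (median -0.68, with 0 above 0), where 4.94% of all genes were called lower. Also called lower were 2 of 12 cardiac muscle markers (median -0.37) and 2 of 8 endothelial markers (median -0.09). Of 5 tested genes each, 1 skeletal muscle marker (median -0.61) and 1 brown fat marker (median -0.34) were lower. Of the 14 neutrophil markers 1 was called higher and 0 lower (median 0.28). In the alveolar type 1, alveolar type 2, club and ciliated, and smooth muscle and pericyte lists 0 were called. Erythroid markers summed to 489, 3455 and 3869 FPKM at VILI 6 hours against 4920 to 5421 at VILI 0 hours, and alveolar macrophage markers to 697, 302 and 382 against 448 to 512. The part of these cells in the lower subunit values was not tested.

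The other 3 complex III subunits were not called between both VILI groups. These were Uqcrfs1 (-0.12), Uqcrc1, a core subunit (0.04), and Uqcrq. Cyc1, the cytochrome c1 subunit, whose symbol the rule did not take, ranged from 26.0 to 27.2 FPKM in the controls, 28.3 to 28.9 at VILI 0 hours and 24.3 to 33.4 at VILI 6 hours, and was not called. Among the succinate dehydrogenase genes of complex II, Sdhd, a membrane anchor, had 32.7, 36.1 and 36.5 FPKM in the controls, 37.0, 38.7 and 38.3 at VILI 0 hours and 34.3, 30.7 and 33.5 at VILI 6 hours. Its VILI 6 hours libraries were below all VILI 0 hours libraries (-0.21 ± 0.09, adjusted p = 0.466). The flavoprotein Sdha and the iron-sulphur subunit Sdhb had log2 fold changes of -0.13 and -0.07.

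Against control at VILI 6 hours, 8 of 82 nuclear-encoded subunits were called, 5 higher and 3 lower. This is 9.76% of the subunits, below the 20.4% of all genes called (8.17% higher and 12.2% lower). The higher ones were Cox6a1, Ndufb9, Cox4i1, Ndufa8 and Atp5d. Ndufa8, an accessory subunit of complex I, had 22.7, 19.1 and 22.8 FPKM in the controls and 28.2, 27.9 and 23.6 at VILI 6 hours (0.30 ± 0.11, adjusted p = 0.181). Atp5d, the delta subunit of the ATP synthase, had 40.2, 35.7 and 36.7 FPKM in the controls and 46.1, 44.0 and 42.9 at VILI 6 hours (0.24 ± 0.09, adjusted p = 0.179), but this direction came from summing its 3 transcripts, and its highest transcript alone gave -0.40. The lower ones were Uqcr10, Cox4i2 and Atp5j. Over all genes 9.64% had VILI 6 hours wholly above control, as had 9 of the 82 subunits, and none of the 82 lay wholly below, where 15% of all genes did.

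These counts moved with single libraries. Without VILI 6 hours replicate 1, 35 members were called for VILI 6 hours vs control, 5 higher and 30 lower, against 38.9% of all genes called and 26% called lower, and 18 passed adjustment, against 23.3% of all genes. Between both VILI groups, 41 were called without it, all lower, against 22.4% of all genes called and 13.9% called lower, and 4 passed adjustment (Atp5j, Uqcr10, Ndufa2 and Atp5e), against 1.87%. In VILI 0 hours vs control, where that library enters through the shared estimate of the spread, 16 were called, 13 higher and 3 lower (23.2% of all genes called and 14.2% called lower), and 4 passed adjustment (Cox6a1, Uqcrfs1, Ndufaf2 and Ndufa7), against 6.93%. Ndufa2, an accessory subunit of complex I, shows the difference: it had 43.1 FPKM in replicate 1 and 27.1 and 29.5 in replicates 2 and 3 of VILI 6 hours, against 36.6 to 40.9 in the controls and 40.8 to 44.1 at VILI 0 hours. Other libraries lowered the counts: without VILI 6 hours replicate 2, 5 members were called between both VILI groups, 1 higher and 4 lower (5.1% and 4.72% of all genes), and without VILI 0 hours replicate 2, 4 were called for VILI 0 hours vs control, 3 higher and 1 lower (6.08% and 8.3%). When replicate 1 of VILI 6 hours was left out, mt-Nd3, mt-Nd4l and mt-Nd4 had adjusted p values of 0.0198, 0.0239 and 0.0376 for VILI 6 hours vs control. Their limma P before adjustment rose, from 0.0012, 0.0014 and 0.0053 to 0.0024, 0.0034 and 0.0074. The lower adjusted values thus came with the larger share of all genes called in that fit.

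Complex IV is built with isoforms that differ between tissues, and the isoform Cox4i2, known from lung and pericytes, was measured beside its common partner Cox4i1. Cox4i2 had 33.8, 33.7 and 37.9 FPKM in the controls, 36.0, 30.4 and 31.6 at VILI 0 hours and 33.8, 25.7 and 25.9 at VILI 6 hours (VILI 6 hours vs control -0.31 ± 0.13, adjusted p = 0.216). As a share of both isoforms it was 20%, 22.4% and 22.6% in the controls, 19.1%, 16.6% and 17.7% at VILI 0 hours and 17.5%, 14.6% and 15.8% at VILI 6 hours. The share was lower than every control in all 6 VILI libraries, and no test is given for it. The markers of smooth muscle and pericytes, where Cox4i2 is known to be expressed, summed to 318 ± 35.5 FPKM in the controls, 363 ± 59.5 at VILI 0 hours and 367 ± 65.5 at VILI 6 hours. Single markers went both ways. Against control, Notch3 was called lower in both VILI groups and Des higher at VILI 0 hours. Of the 10 markers, 5 had a log2 fold change above 0 at VILI 0 hours and 6 at VILI 6 hours. The part of these cells in the Cox4i2 values was not tested.

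**Figure D5:**
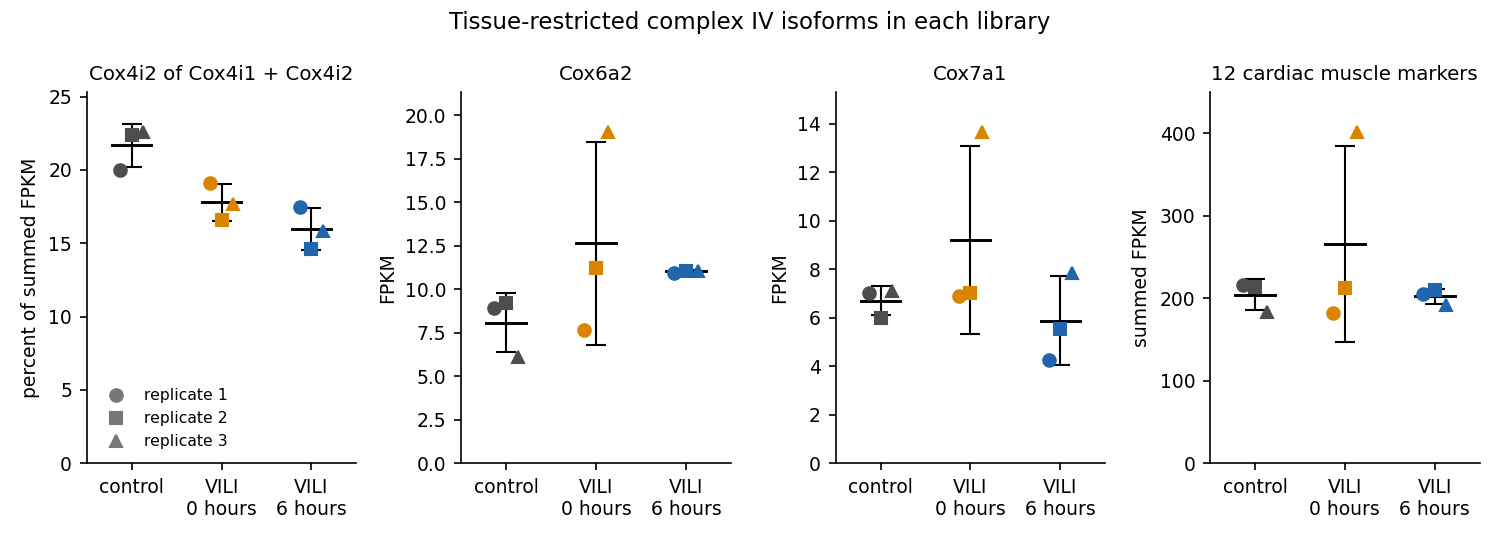
Share of Cox4i2 in the summed FPKM of Cox4i1 and Cox4i2 (percent), FPKM of the muscle isoforms Cox6a2 and Cox7a1, and summed FPKM of 12 cardiac muscle markers in each library, with group means and SD (n = 3). The Cox4i2 share is below every control in the 6 VILI libraries, and VILI 0 hours replicate 3 is the highest library in the other panels.

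The isoforms known from heart and skeletal muscle, Cox6a2, Cox7a1 and Cox8b, were highest in VILI 0 hours replicate 3. Cox6a2 had 8.91, 9.23 and 6.11 FPKM in the controls, 7.64, 11.2 and 19.1 at VILI 0 hours and 11 to 11.1 at VILI 6 hours. Cox7a1 had 13.7 FPKM in VILI 0 hours replicate 3 and 4.26 to 7.86 elsewhere, and Cox8b had 7.15 there and 2.78 to 4.76 elsewhere. None of the 3 was called in a comparison. The 12 cardiac muscle markers summed to 402 FPKM in that library and to 182 to 216 in the other 8, and all 12 were above 0 in every library. Cox6b2, an isoform known from testis, was 8.21%, 8.88% and 6.16% of Cox6b1 and Cox6b2 in the controls, 4.91%, 5.57% and 7.57% at VILI 0 hours and 6.08%, 6.05% and 5.05% at VILI 6 hours, so the VILI 6 hours libraries were just below every control. For Ndufa4l2, in the pair with Ndufa4, the group means of the share were 15.1% to 16.2% and the groups overlapped.

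The assembly and accessory factors had the lowest median log2 fold change of the 3 classes of members for VILI 0 hours vs control. All 9 had a log2 fold change below 0 for VILI 0 hours vs control (median -0.28), where 11439 of all 19378 genes tested were below 0 (median -0.07). Of the 9, 11.1% were called, below the 16.2% of all genes. The summed FPKM of the 9 was 52.0, 53.2 and 54.8 in the controls, 42.3, 45.5 and 47.4 at VILI 0 hours and 57.3, 39.8 and 36.0 at VILI 6 hours. At VILI 0 hours only Ndufaf2, a complex I assembly chaperone, was called, with 7.38, 7.34 and 7.01 FPKM in the controls, 4.08, 4.27 and 5.07 at VILI 0 hours and 7.06, 3.32 and 4.94 at VILI 6 hours. It was lower at VILI 0 hours (-0.69 ± 0.24, adjusted p = 0.203) and at VILI 6 hours (-0.56 ± 0.24, adjusted p = 0.227). Atp5s had 3.88, 4.81 and 4.28 FPKM in the controls and 3.84, 2.35 and 1.34 at VILI 6 hours (-0.87 ± 0.33, adjusted p = 0.187). In both genes replicate 1 of VILI 6 hours was closest to control. Among 10 further complex I assembly genes, Acad9 alone was called, lower in both VILI groups (-0.34 and -0.32, adjusted p = 0.259 and adjusted p = 0.228), with 8.22 to 8.57 FPKM in the controls, 6.40 to 6.81 at VILI 0 hours and 5.65 to 7.85 at VILI 6 hours. Of 36 assembly genes of complexes II to V, 0 were higher in any comparison, and 1, 3 and 1 were lower in VILI 0 hours against control, in VILI 6 hours against control and from VILI 0 hours on to VILI 6 hours, respectively, where 9.35%, 12.2% and 4.94% of all genes were lower.

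Genes that express the mitochondrial genome were also counted. Of 26 tested, 1 was lower at VILI 0 hours (Lrpprc) and 1 for VILI 6 hours vs control (Ssbp1), and for VILI 6 hours vs VILI 0 hours 2 were lower (Slirp and Ssbp1) and 1 higher (Tbrg4). Of all genes, 16.2%, 20.4% and 10% were called in these comparisons, so the 3 of 26 between both VILI groups lie near the background. Ssbp1, which binds single-stranded mitochondrial DNA, had 16.0, 17.4 and 19.9 FPKM in the controls, 15.9, 17.4 and 15.2 at VILI 0 hours and 14.8, 11.8 and 10.5 at VILI 6 hours, where all libraries were below the others (vs control -0.53 ± 0.14, adjusted p = 0.111). Slirp and Lrpprc form a complex that stabilises mitochondrial mRNAs. Slirp was called for VILI 6 hours vs VILI 0 hours alone (-0.49 ± 0.18, adjusted p = 0.42), and Lrpprc for VILI 0 hours vs control alone (-0.39 ± 0.15, adjusted p = 0.248). The transcription factor Tfam and the polymerase Polrmt were not called, with log2 fold changes of -0.14 and -0.23 for VILI 6 hours vs control. Of 10 regulators of mitochondrial biogenesis, only the coactivator Pprc1 was called, higher at VILI 6 hours than in control (0.67 ± 0.26, adjusted p = 0.206) and than at VILI 0 hours (0.73 ± 0.26, adjusted p = 0.414).

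Among 8 carriers and uncoupling proteins, 3 were called higher for VILI 0 hours vs control (Slc25a5, Ucp2 and Ucp3) and 2 for VILI 6 hours vs control (Slc25a5 and Ucp2), where 6.81% and 8.17% of all genes were higher. The ADP/ATP carrier Slc25a5 had 102 to 105 FPKM in the controls, 116 to 125 at VILI 0 hours and 120 to 130 at VILI 6 hours, and both VILI groups lay above control. Ucp2, an inner membrane carrier abundant in leukocytes, had 86.3, 77.8 and 65.7 FPKM in the controls, 222, 142 and 206 at VILI 0 hours and 76.6, 304 and 314 at VILI 6 hours, so replicate 1 of VILI 6 hours stayed within the control range. The neutrophil marker sum of that library, 652 FPKM, was the lowest of the VILI libraries, and the part of neutrophils in these values was not tested. Of 17 tricarboxylic acid cycle genes, 2 were higher for VILI 6 hours vs control (Mdh2 and Dlst) and 1 was lower for VILI 6 hours vs VILI 0 hours (Suclg1). Of 21 mitochondrial import genes, 1 was higher and 2 lower for VILI 6 hours vs control, and 2 were lower for VILI 6 hours vs VILI 0 hours. The background for these lists was 8.17% of all genes higher and 12.2% lower for VILI 6 hours vs control, and 4.94% lower between both VILI groups. After adjustment, limma called 0 genes of these lists in any comparison.

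The promoters of the nuclear-encoded members were searched for 3 short motifs known from genes of the respiratory chain, since 65 of the 82 tested nuclear-encoded subunits had a fold change above 0 for VILI 0 hours vs control. RefSeq promoters (GRCm38.p6, 250 bases before to 50 after the start) were matched for 74 of 93 nuclear members, with 79 promoters. The core of the NRF1 motif, GCGCANGCG, searched on both strands like the others, was in 23 of the 79 promoters (29.1%) and in 6.25% of all 32851 promoters, or 8.58% of the 21263 promoters of protein-coding genes. The ETS motif CCGGAAG, of the kind GABP binds, was in 22.8% of members' promoters, 8.86% of all and 11.6% of protein-coding ones, and the YY1 core AAGATGG in 13.9%, 6.34% and 6.24%. Parts of 3 promoters are printed with matches on either strand in capitals, for the subunit with the smallest P for VILI 0 hours vs control, for that with the smallest P for VILI 6 hours vs VILI 0 hours, and for the called member of complex II. They lie at chr5:115348959-115349145 for Cox6a1, chr16:84835006-84835089 for Atp5j and chr9:50603864-50603953 for Sdhd, all on the - strand and written 5′ to 3′ in the direction of the gene.
Cox6a1: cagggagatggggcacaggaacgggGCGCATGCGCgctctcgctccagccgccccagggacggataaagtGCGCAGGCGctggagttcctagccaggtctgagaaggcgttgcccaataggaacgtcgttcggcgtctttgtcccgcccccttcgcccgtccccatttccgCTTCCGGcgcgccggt
Atp5j: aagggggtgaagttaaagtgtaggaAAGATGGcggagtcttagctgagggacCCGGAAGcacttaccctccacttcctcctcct
Sdhd: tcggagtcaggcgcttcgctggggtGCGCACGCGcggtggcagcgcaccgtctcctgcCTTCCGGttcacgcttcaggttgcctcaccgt
Cox6a1 holds NRF1 matches at 2 places, the first of which matches on both strands, and an ETS match, Atp5j a YY1 and an ETS match, and Sdhd an NRF1 and an ETS match. Such a match is a description of the letters and says nothing about binding in these lungs. The 20 tested subunits with an NRF1 match and the 46 without had median log2 fold changes of 0.11 and 0.11 for VILI 0 hours vs control and of -0.15 and -0.18 for VILI 6 hours vs VILI 0 hours. For the ETS motif, with 16 and 50 subunits, the medians were 0.13 and 0.08, then -0.19 and -0.16. For YY1, with 10 and 56, they were 0.0028 and 0.12, then -0.14 and -0.17. Called for VILI 0 hours vs control were 2 and 5 subunits (with and without NRF1), 1 and 6 (ETS) and 0 and 7 (YY1). Of all genes 16.2% were called, 6.81% higher. For VILI 6 hours vs VILI 0 hours the counts were 3 and 8, 5 and 6, and 1 and 10, where 10% of all genes were called, 4.94% lower. The differences between subunits with and without a motif have no test.

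Ndufs3, a core subunit of complex I in the peripheral arm, was listed at exactly 0 in VILI 0 hours replicate 1 and VILI 6 hours replicate 1. In the other 7 libraries it had 11.7, 8.98 and 11.3 FPKM (control), 9.36 and 10.6 FPKM (VILI 0 hours) and 6.70 and 11.7 FPKM (VILI 6 hours). A value of 0 for a gene at this level elsewhere can be a failed estimate, so no fold change is given for it.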

How the data were processed

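Groups came from the sample labels. The authors aligned reads with TopHat2 2.0.9 and Bowtie2 2.0.6 to GRCm38, assembled transcripts with Scripture and Cufflinks, and deposited FPKM per transcript from Cuffdiff 2.1.1 (tool versions per the submitters' processing notes). The library kit and sequencer named in the labels differ from those in the methods of the study, so the strand setting is not settled. FPKM keep no read counts, so no count model was used and the depth behind a value is unknown. Of 60108 transcript rows, 211 belonged to the 106 genes, 55 of which had a single row. Rows were summed per gene, and 23503 of 23713 Ensembl IDs were named with GENCODE M21.

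limma 3.58.1 (R 4.3.3, lmFit, eBayes with a trend) was fitted to log2(FPKM + 0.1) of 19378 genes with a mean of at least 0.1 FPKM, all 9 libraries in 1 fit with group as the factor. This scale understates changes of low genes. Two-sided P values were adjusted by Benjamini-Hochberg over all genes, and the procedure was tested on simulated data. Percentages of change are from group means on that scale. Sums, ratios, shares and medians over members have no test. The members, lists and tests were chosen with earlier results of these data known.

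Named genes were all 13 mitochondrial genes, every member called in a comparison, the highest and lowest fold change of each complex, the tissue isoforms and their partners, the 10 members of highest mean, members at 0 in a whole group, and, from the other lists, genes past adjustment or with the smallest P. Further genes of those lists, and members named where 1 library was left out, were chosen after their values were seen. Alternatives were pseudocounts of 0.01 and 1, a filter at 1 FPKM or none, median-centred libraries, equal sums outside the mitochondrial genome, no trend, a replicate block, the highest transcript, only the 6 libraries compared, and each library left out. Python 3.11.15, numpy 2.4.6, pandas 2.3.3 and matplotlib 3.10.9 were used. Values of 1 member are not reported here by name.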

Additional observations from a re-analysis of the deposited data

How the results depend on the processing

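In VILI 0 hours vs control, 11 members were called, and 35 with median-centred libraries, 5 without the trend, 7 with the replicate block, 17 with only the 6 libraries compared (4 adjusted, against 0) and 4 to 16 with a library left out (0 to 4 adjusted). In VILI 6 hours vs control, 16 were called, 10 without the trend and 8 to 35 with a library left out (0 to 18 adjusted). From VILI 0 hours to VILI 6 hours, 20 were called, 12 with median-centred libraries, 12 without the trend, 13 with only the 6 libraries compared and 5 to 41 with a library left out (0 to 4 adjusted). The low value was without VILI 6 hours replicate 2. The 4 adjusted calls for VILI 0 hours and the 18 for VILI 6 hours against control were without VILI 6 hours replicate 1, where 6.93% and 23.3% of all genes passed adjustment. The share of all genes called also moved with the setting. It is not given for the fits without the trend, with the replicate block or with only the 6 libraries compared. Nor is it given for every fit with a library left out, so those member counts have no background. The lowest counts in comparisons with control were 4 without VILI 0 hours replicate 2 (6.08% of all genes higher and 8.3% lower) and 8 without control replicate 3 (5.58% and 7.64%). Counts over 1.5 times lower also came without control replicate 1 or VILI 0 hours replicate 1 or 3 (VILI 0 hours vs control, 5, 7 and 7), without control replicate 2 or VILI 6 hours replicate 2 (VILI 6 hours vs control, 9 and 9), and without VILI 0 hours replicate 2 or 3 (between both VILI groups, 10 and 8).

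The nuclear median in VILI 0 hours vs control was 0.12, 0.23 with median-centred libraries and 0.0483 with equal sums outside the mitochondrial genome. In VILI 6 hours vs control it was -0.08, turning to 0.0506 with median-centred libraries and running from -0.1386 (without VILI 6 hours replicate 1) to -0.0252 (without replicate 2) with a library left out. The mitochondrial median in VILI 0 hours vs control was -0.12, -0.0017 with median-centred libraries and -0.1976 to 0.0422 with a library left out, the latter without control replicate 3. In VILI 6 hours vs control it was -0.47, -0.35 with median-centred libraries and -0.5418 to -0.2604 with a library left out, the latter without control replicate 3 (-0.30 without VILI 6 hours replicate 1). Atp5d in VILI 6 hours vs control was -0.40 from its highest transcript alone. The cause of these shifts was not tested.

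Replicate numbers did not pair the libraries: correlations of same-numbered libraries' deviations from group means ran from -0.267 to 0.041. The replicate block gave 15 members called for VILI 6 hours vs control and 16 between both VILI groups. With 3 libraries per group and no counts, changes near the spread between them could not be resolved.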
